A study of Drosophila melanogaster with 12 samples.

Results

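The response of wild-type Drosophila melanogaster larvae to dietary sugar was measured by sequencing polyadenylated RNA of whole larvae, labelled 3rd instar. The comparison set 3 libraries of wild-type larvae moved to food with 10% yeast and 20% sucrose and collected 8 h later (high sugar) against 3 libraries of wild-type larvae moved to fresh food with 10% yeast alone and collected 1.5 h later (low sugar). These are 6 of the 12 libraries of the study, and all genes of the deposited table were used: 16413 gene names, of which 10045 had enough reads to be tested. The other 6 libraries came from mlx1 larvae, null for Mlx, on the same foods and at the same hours, with 3 libraries on high sugar and 3 on low sugar. Each genotype was 1 line, and no age in days was given for the larvae. All larvae had hatched from eggs laid within 3 h, had been put on 10% yeast 24 h after that, and were moved again 24 h later. Larvae that did not feed on the new food were removed after 1.5 h. Because the high-sugar larvae were collected 6.5 h later than the low-sugar larvae, diet cannot be told apart from hours after transfer. The names of the high-sugar columns also carry the tag L3 and those of the low-sugar columns the tag L2, whose meaning was not given and which goes together with diet too. Below, "rose" and "fell" describe high-sugar relative to low-sugar larvae, with all of this included.

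In fly larvae, dietary sucrose is split in the gut, taken up as glucose and fructose, and stored by the fat body as glycogen and triglyceride, while trehalose carries sugar in the haemolymph. The transcription factor Mondo and its partner Mlx bind DNA together when sugar phosphates accumulate, and switch on genes of glycolysis, lipid synthesis and further regulators. Larvae grow fast between moults, and nutrient signals also act on ribosome production, digestion and insulin signalling.

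Read totals were 8924342, 9863889 and 11032921 in high-sugar libraries A, B and C, against 10020927, 10488754 and 9922743 in low-sugar libraries A, B and C. Levels are given as counts per 1000000 reads (CPM) after TMM scaling, always for libraries A, B and C in that order. Across genes, which are no independent replicates, the correlation of log2 CPM was 0.953 to 0.988 between wild-type libraries on the same food and 0.903 to 0.962 between foods. Larval cuticle genes differed widely between libraries of 1 group: their mean log2 CPM was 5.08, 4.91 and 3.21 in high-sugar libraries, against 4.18, 6.38 and 5.93 in low-sugar libraries. The defining fat body genes of late larvae were almost absent, with 0 reads of Lsp2 and Fbp1 in all 6 wild-type libraries, and the salivary glue gene Sgs3 had 1 read in high-sugar library C and 0 in the other 5. In bulk RNA, fewer cells of a type and less RNA per cell cannot be told apart. Whether replicate libraries were raised as separate cultures is not given, so the p-values measure only the spread between libraries. For the tests of gene levels this spread was estimated over all 12 libraries, those of mlx1 included.

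Of the tested genes 23.1% differed between the diets, about as many higher as lower, and most of the differences were small. Of 10045 genes, 1154 rose (11.5%) and 1164 fell (11.6%) at an adjusted p under 0.05 by the quasi-likelihood test of edgeR, with Benjamini-Hochberg adjustment over all genes tested. All adjusted p-values below come from this test, and a value after ± is a standard error. The median log2 fold change was 0.73 among genes that rose and -0.66 among genes that fell, against -0.05 over all tested genes. Where a list below is given with 1 direction, its other members did not pass the test. Changes of at least 2-fold were called for 362 genes that rose (3.6%) and 232 that fell (2.31%). Changes of at least 4-fold were called for 83 genes that rose and 46 that fell, and of at least 8-fold for 22 and 11. For 1138 of the 1154 genes that rose, and 1148 of the 1164 that fell, the 3 high-sugar libraries did not overlap with the 3 low-sugar ones. Nearly all called genes are thus without overlap, so a lack of overlap given below for a called gene adds little to its call. The share without overlap over all tested genes was not counted. Differences of mean level summed to 115400 CPM over the genes that rose and to 83300 CPM over those that fell. A small set of genes carried much of this, the 12 genes with the largest differences holding 30.1% of the gain and 35.1% of the loss. Without low-sugar library B the counts were 681 higher and 742 lower, without high-sugar library B 747 and 690. With only the wild-type libraries in the fit they were 1077 and 894.

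By difference of mean CPM, which favours long and abundant transcripts, the gain was led by fatty acid synthase and muscle genes and the loss by cuticle genes. Fatty acid synthase CG3523 (FASN1), at 2L:3056598-3068177, stood at 8030, 11691 and 9389 CPM in high-sugar libraries, against 1752, 1322 and 1454 CPM in low-sugar libraries. All 3 high-sugar values lay above the highest low-sugar value, as the rule that named the gene required. The 12 genes with the largest gain also held ACC and desat1, which supply and desaturate fatty acids, ATPCL and Men, which supply acetyl-CoA and NADPH, the transketolase CG8036, glycogen phosphorylase GlyP, the aldehyde dehydrogenase Aldh, the myosin heavy chain Mhc, the giant muscle kinase bt, the proton pump subunit Vha16-1 and the mitochondrial mt:CoI (COX1). Mhc had 15765, 17561 and 16040 CPM in high-sugar libraries, against 14536, 9772 and 8440 CPM in low-sugar libraries, and its call (adjusted p = 0.0417) was lost when any 1 of 5 libraries was left out, low-sugar library A being the exception. Vha16-1 was lost as a call without any 1 of several libraries, at an adjusted p of up to 0.164, and mt:CoI without high-sugar library B or C or low-sugar library B, at up to 0.0608. The 12 genes with the largest loss were alphaTub84B, a tubulin, and 11 genes that include the cuticle proteins TwdlN, Cpr47Eg, Lcp65Ag2, Lcp65Af, Lcp65Ag3, Cpr78Cc and Lcp65Ae, besides CG13731, CG7465, CG13705 and the lectin Clect27 (slf). The tubulin had 2147, 2091 and 2220 CPM in high-sugar libraries, against 3493, 3474 and 2980 CPM in low-sugar libraries, and the groups were far apart relative to their spread (log2 fold change -0.62 ± 0.11, adjusted p = 0.00256). TwdlN had 896, 811 and 228 CPM in high-sugar libraries, against 1240, 6967 and 5563 CPM in low-sugar libraries, so that high-sugar library A and low-sugar library A lay close together. Without low-sugar library B all 11 lost the call (adjusted p = 0.0585 to 0.154), and without high-sugar library B so did all but CG13705.

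The largest rises by fold were those of enzymes that conjugate or activate small molecules and of genes of unknown function. The 15 largest are described here, each with at least 10 CPM on average on high sugar. The UDP-glycosyltransferase CG5724 (Ugt37A2) had 43.7, 112 and 128 CPM in high-sugar libraries, against 2.46, 2.38 and 1.17 CPM in low-sugar libraries. Its relative CG5999 (Ugt37A3) had 33.5, 91.2 and 96.9 CPM in high-sugar libraries, against 5.74, 2.78 and 2.43 CPM in low-sugar libraries. In both genes, high-sugar library A was well below libraries B and C but still far above every low-sugar library. CG1774, an acyl-CoA thioesterase family member, had 772, 838 and 763 CPM in high-sugar libraries, against 27.2, 41.5 and 46.9 CPM in low-sugar libraries, a log2 fold change of 4.36 ± 0.18 (adjusted p = 8.38e-08). CG32444, annotated as an aldose 1-epimerase, which interconverts the ring forms of sugars, had 501, 518 and 508 CPM in high-sugar libraries, against 73.2, 50.3 and 60.9 CPM in low-sugar libraries. Its 3 high-sugar values differed from each other far less than they did from the low-sugar values, and its log2 fold change was 3.05 ± 0.17 (adjusted p = 4.12e-07). The other risers among the 15 were CG14205 at 4.66 ± 0.70, CG1638 at 4.59 ± 0.36, CG9238 (Gbs-70E) at 3.59 ± 0.19, the neighbours CG32751 at 3.48 ± 0.56 and CG32750 at 3.07 ± 0.53, AcCoAS at 3.19 ± 0.14, Mal-A7 at 3.07 ± 0.45, sug at 2.97 ± 0.11, CG16898 at 2.88 ± 0.46 and CG9825 at 2.88 ± 0.38, all on the log2 scale. The immune-induced peptide gene IM4 (Dso1) had 76.9, 79.6 and 65.5 CPM in high-sugar libraries, against 1.13, 3.67 and 10.7 CPM in low-sugar libraries (log2 fold change 3.83 ± 0.91, adjusted p = 0.0171), but it lost the call without low-sugar library B (adjusted p = 0.0723) or without the 3 libraries of low cuticle expression, high-sugar library C, low-sugar library A and mlx1 low-sugar library A (0.0818). These 3 libraries were picked for their cuticle levels (mean log2 CPM 3.21, 4.18 and 3.68), and mlx1 high-sugar library A was kept at 4.1.

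The 15 largest falls, each with at least 10 CPM on average on low sugar and no overlap, were led by CG15369 and CG14851. They included a digestive enzyme pair, gut-associated hydrolases, cuticle proteins and an amino acid enzyme, besides genes of none of these classes. The amylase Amy-p, which digests starch, had 4.83, 5.87 and 27.7 CPM in high-sugar libraries, against 219, 100.3 and 56.4 CPM in low-sugar libraries. Its paralog Amy-d had 1.46, 1.44 and 7.18 CPM in high-sugar libraries, against 52.2, 21.5 and 17.4 CPM in low-sugar libraries. Reads of these near-identical genes may have been split between them, and high-sugar library C was nearer to the low-sugar libraries in both. With only the 6 wild-type libraries in the fit neither was called (adjusted p = 0.0961 and 0.0707), and Amy-d was also lost without high-sugar library A or B. The alkaline phosphatase family member CG3292 fell to 11.4, 5.15 and 13.1 CPM on high sugar, against 106, 44.6 and 70.02 CPM on low sugar, and the sphingomyelin phosphodiesterase family member CG15533 to 26.4, 27.6 and 31.6 CPM, against 233, 126 and 96.8 CPM. The sarcosine dehydrogenase CG6385 (Sardh) was the most even of these genes, at 21.5, 23.0 and 22.9 CPM in high-sugar libraries, against 125, 126 and 138 CPM in low-sugar libraries. Among the others were CG15369 at -4.47 ± 0.49, CG14850 (Jig) at -3.03 ± 0.35, CG14852 at -3.15 ± 0.15, CG10026 at -2.82 ± 0.31, CG17362 at -2.81 ± 0.28, CG42335 at -2.40 ± 0.37 and the cuticle gene TwdlP at -2.89 ± 0.65 on the log2 scale, the last of them not called with only the 6 wild-type libraries in the fit (adjusted p = 0.0583). CG14852 shared exon positions with another gene and could not be called without such exons, and CG14851, CG33489 and TwdlN, at -4.28 ± 1.25, -2.59 ± 0.67 and -2.83 ± 0.85, each lost the call without at least 1 library (adjusted p of up to 0.111, 0.0703 and 0.124).

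**Figure D1:**
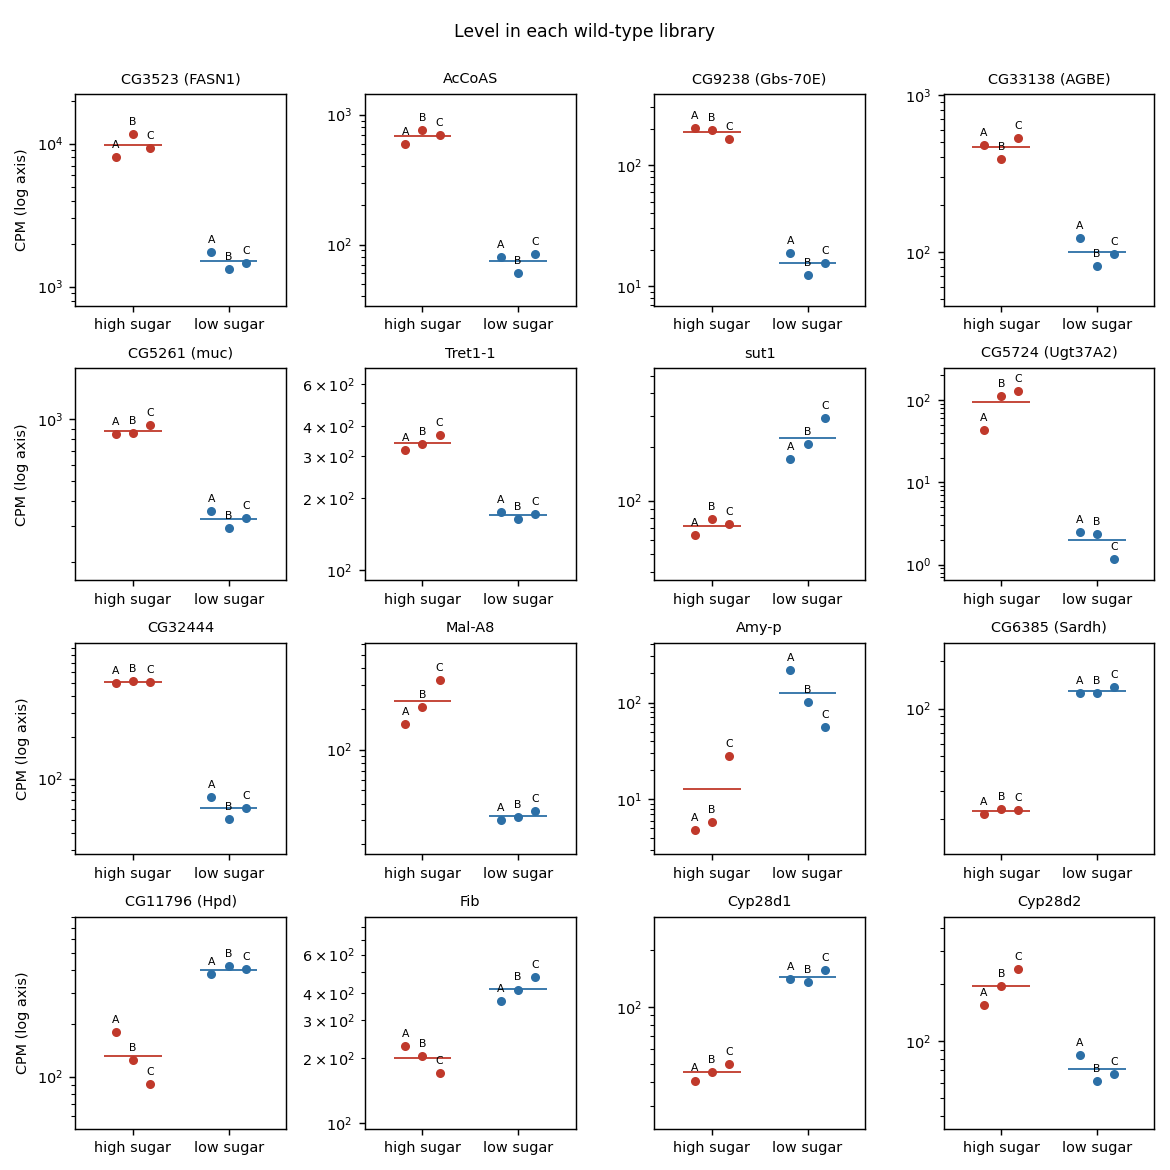
Level of 16 genes in each wild-type library, in CPM on a log axis, with high-sugar libraries on the left of each panel and low-sugar libraries on the right (letters A, B and C, horizontal bar at the mean of 3 libraries). The 3 high-sugar points lie on 1 side of the 3 low-sugar points in every panel, as the naming rules required for some of these genes. CG5724 and Amy-p show the widest spread between libraries of 1 group.

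Genes that move sugars into cells split by transporter, while genes of glycogen and trehalose metabolism rose together. Of the 24 tested genes of sugar transport and phosphorylation, 9 rose and 5 fell, with a median log2 fold change of 0.38, and without high-sugar library B 3 fell. The trehalose transporter Tret1-1 had 317, 336 and 368 CPM in high-sugar libraries, against 174, 163 and 171 CPM in low-sugar libraries. By contrast the sugar transporter sut1 fell to 64.5, 78.6 and 74.4 CPM, against 170.3, 209 and 290.4 CPM on low sugar, a log2 fold change of -1.62 ± 0.17 (adjusted p = 7.18e-05). Tret1-1 was higher and sut1 lower in every high-sugar library than in any low-sugar library. The predicted sugar transporters CG7882, CG4797 (pippin) and CG4607 rose by 1.31 ± 0.15, 1.79 ± 0.30 and 0.79 ± 0.13 on the log2 scale. Hexokinase Hex-A, which traps glucose as glucose 6-phosphate, had 281, 316 and 302 CPM in high-sugar libraries, against 181, 199 and 199.95 CPM in low-sugar libraries (log2 fold change 0.63 ± 0.13, adjusted p = 0.00494). In glycogen and trehalose, 10 of 14 genes rose, with a median of 1.32, and the whole list made up 0.810%, 0.769% and 0.869% of named reads (reads assigned to a named gene) in high-sugar libraries, against 0.421%, 0.306% and 0.315% in low-sugar libraries. Glycogen branching enzyme CG33138 (AGBE) had 478, 389 and 532 CPM in high-sugar libraries, against 123, 81.7 and 96.6 CPM in low-sugar libraries, a log2 fold change of 2.22 ± 0.28 (adjusted p = 0.000369). The glycogen-targeting phosphatase subunit CG9238 had 203, 196 and 165 CPM in high-sugar libraries, against 18.9, 12.4 and 15.6 CPM in low-sugar libraries. These genes of glycogen assembly were separated between the diets with no overlap. Genes of glycogen breakdown rose as well, with GlyP at 3253, 3195 and 3596 CPM in high-sugar libraries, against 1553, 1138 and 981 CPM in low-sugar libraries and the debranching enzyme CG9485 higher by 1.43 ± 0.21. The trehalose synthase Tps1 had 373, 371 and 439 CPM in high-sugar libraries, against 192, 140.0 and 176 CPM in low-sugar libraries, and the phosphatase family member CG5171, UGP, which makes UDP-glucose, and Pgi rose by 2.12 ± 0.13, 1.68 ± 0.19 and 1.47 ± 0.14.

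Genes that bring pyruvate into mitochondria and turn it into acetyl-CoA rose, and few genes of the TCA cycle and respiratory chain passed the test. Of 13 genes of gluconeogenesis and pyruvate handling, 8 rose (median 0.72). The CG5261 (muc) subunit of pyruvate dehydrogenase had 844, 857 and 937 CPM in high-sugar libraries, against 357, 293 and 328 CPM in low-sugar libraries. The l(1)G0334 (Pdha) subunit had 369, 391 and 413 CPM in high-sugar libraries, against 169, 152 and 168 CPM in low-sugar libraries. CG11876 (Pdhb) and CG7430, which complete the complex, rose by 0.77 ± 0.10 and 0.72 ± 0.11. All 4 subunits of this complex were higher in each high-sugar library than in each low-sugar library. Pyruvate carboxylase CG1516 (PCB), which makes oxaloacetate, and the pyruvate carrier CG14290 (Mpc1) rose by 0.81 ± 0.14 and 0.65 ± 0.12. In the TCA cycle 1 of 14 genes rose, skap (ScsbetaA), a subunit of succinyl-CoA synthetase, by 0.55 ± 0.11, and the median was 0.12. Without low-sugar library A 2 rose, and 4 without the 3 libraries of low cuticle expression. In the respiratory chain 2 of 65 rose and 1 fell, with a median of -0.06, and all 3 calls were lost without at least 1 library.

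Genes that make fatty acids and NADPH rose. In the lipogenic core, 14 of 28 genes rose (median 0.62), and the list took up 2.36%, 3.00% and 2.75% of named reads in high-sugar libraries, against 0.666%, 0.520% and 0.615% in low-sugar libraries. Acetyl-CoA synthetase AcCoAS, at 3L:21263822-21273343, had 591, 759 and 703 CPM in high-sugar libraries, against 80.3, 60.6 and 83.9 CPM in low-sugar libraries. The mitochondrial glycerol 3-phosphate dehydrogenase Gpo-1 (Gpo1) had 1331, 1466 and 1463 CPM in high-sugar libraries, against 378, 318 and 307 CPM in low-sugar libraries, a log2 fold change of 2.09 ± 0.10 (adjusted p = 2.2e-07). Its cytosolic counterpart Gpdh (Gpdh1) had 1716, 1925 and 2079 CPM in high-sugar libraries, against 482, 434 and 566 CPM in low-sugar libraries. Both ends of the glycerol phosphate shuttle were higher in every high-sugar library. The NADPH-making dehydrogenases Zw and Pgd had 285, 279 and 327 CPM and 824, 808 and 946 CPM on high sugar, against 55.4, 38.6 and 38.4 CPM and 228, 211 and 212 CPM on low sugar. The fat body markers that were detected rose with this list: 3 of 4 tested, and 0.957% to 1.45% of named reads for all 10 on high sugar, against 0.549% to 0.817% on low sugar. These 3 are desat1, Lsd-1 and GRHR (AkhR), themselves lipid genes, and the part of fat body cell number in the result was not tested.

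Of 27 fatty acid elongases and desaturases, 5 rose and 2 fell, near the background, with a median of 0.03, and 1 fell without library B or C of either diet. The elongase Baldspot and the desaturase CG9743 rose by 0.99 ± 0.14 and 0.95 ± 0.18. The elongase bond, needed in flies for very long chain lipids, fell to 101, 76.4 and 73.3 CPM on high sugar, against 153, 209 and 172 CPM on low sugar. In lipid storage and lipophorins, 4 of 16 rose and 4 fell, both counts being 2 without low-sugar library B, with 2 higher also without high-sugar library B and 2 lower also without high-sugar library A or low-sugar library C. The perilipin Lsd-1, which coats lipid droplets, had 294, 291 and 272 CPM in high-sugar libraries, against 135, 143 and 134 CPM in low-sugar libraries (log2 fold change 1.06 ± 0.14, adjusted p = 0.000389), and GRHR, the receptor of the fat-mobilizing adipokinetic hormone, had 18.3, 18.8 and 20.6 CPM in high-sugar libraries, against 6.77, 4.76 and 4.27 CPM in low-sugar libraries. The lipase bmm, which breaks down stored triglyceride, had 35.2, 38.8 and 28.7 CPM in high-sugar libraries, against 57.5, 70.2 and 81.1 CPM in low-sugar libraries. Mtp, which loads lipid onto lipoproteins, had 92.7, 109 and 119.9 CPM in high-sugar libraries, against 219.7, 164 and 170.3 CPM in low-sugar libraries. For both genes every high-sugar library lay below every low-sugar library. In fatty acid oxidation and peroxisomes, 4 of 29 fell and 1 rose, near the background (median -0.07), and 9 fell when the mean log2 CPM of the cuticle genes in each library was added to the fit as a covariate. The acyl-CoA oxidase family member CG4586 had 18.9, 22.4 and 22.8 CPM in high-sugar libraries, against 49.4, 49.0 and 54.5 CPM in low-sugar libraries. The acyl-CoA dehydrogenase CG12262 (Mcad) had 94.9, 92.9 and 139 CPM in high-sugar libraries, against 314, 281 and 286 CPM in low-sugar libraries, and the thiolase yip2 fell by 0.87 ± 0.10. Sterol carriers of the Niemann-Pick family rose in 4 of 7 cases and fell in 1 (median 0.79). Npc2f had 27.9, 35.7 and 35.2 CPM in high-sugar libraries, against 19.7, 14.5 and 12.3 CPM in low-sugar libraries, Npc2d rose by 1.04 ± 0.24, and Npc1a, which exports sterol from lysosomes, rose by 0.45 ± 0.10. The gut sterol transporter Npc1b had 74.97, 138 and 111 CPM in high-sugar libraries, against 54.4, 22.0 and 16.7 CPM in low-sugar libraries, and was not called when any 1 library other than low-sugar A was left out (adjusted p of up to 0.15). Lipases went both ways, with 4 of 20 higher and 4 lower: CG6277 fell by 1.80 ± 0.41, 2 fell without any 1 high-sugar library or with only the wild-type libraries in the fit, 2 rose without high-sugar library B or C, and the 4 rises were all lost without low-sugar library B.

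Enzymes that break down amino acids fell, and enzymes that make proline, serine and glutamine rose. In tyrosine, tryptophan and branched-chain breakdown, 12 of 18 genes fell, with a median of -0.59, and the list held 0.161%, 0.145% and 0.136% of named reads in high-sugar libraries, against 0.234%, 0.290% and 0.280% in low-sugar libraries. In tyrosine breakdown CG11796 (Hpd), the hydroxyphenylpyruvate dioxygenase, had 178, 124 and 91.0 CPM in high-sugar libraries, against 379.9, 424 and 407 CPM in low-sugar libraries. The next enzyme, hgo, had 24.3, 19.0 and 17.6 CPM in high-sugar libraries, against 55.4, 46.8 and 36.3 CPM in low-sugar libraries. In tryptophan breakdown v, the first enzyme, had 15.5, 14.6 and 18.4 CPM in high-sugar libraries, against 41.9, 40.5 and 47.6 CPM in low-sugar libraries, and cn fell by 0.92 ± 0.16. The branched-chain transaminase CG1673 (Bcat) had 243, 235 and 188 CPM in high-sugar libraries, against 454, 444 and 357 CPM in low-sugar libraries, and CG8199 (BckdhA) and CG5599 (Dbct), subunits of the next complex, fell by 0.55 ± 0.12 and 0.73 ± 0.12. Each of these genes was lower in every high-sugar library than in any low-sugar library. In serine, glycine and methionine cycle, 6 of 20 rose and 9 fell. The fallers handle glycine and methyl groups: CG6188 (Gnmt) (glycine methyltransferase) had 76.5, 109 and 93.2 CPM in high-sugar libraries, against 368, 467 and 529.7 CPM in low-sugar libraries. CG5955 (Tdh) (threonine dehydrogenase) had 32.8, 27.5 and 23.2 CPM in high-sugar libraries, against 94.4, 93.2 and 89.1 CPM in low-sugar libraries, and Ahcy13 (Ahcy) and Nmdmc fell by 1.03 ± 0.11 and 1.00 ± 0.15. The risers included aay, which makes serine, at 273, 359 and 367 CPM in high-sugar libraries, against 67.2, 60.8 and 82.2 CPM in low-sugar libraries, and CG10623 (Bhmt), annotated as a homocysteine methyltransferase, at 1.22 ± 0.14 on the log2 scale. Among glutamine, glutamate, proline and urea-type enzymes, 5 of 17 rose and 1 fell, the higher count being 3 with a minimum of 5 CPM. CG7470 (P5CS), which starts proline synthesis, had 314, 428 and 399 CPM in high-sugar libraries, against 89.3, 62.4 and 74.9 CPM in low-sugar libraries. The glutamine synthetase Gs2 had 335, 333 and 347 CPM in high-sugar libraries, against 182, 197 and 194 CPM in low-sugar libraries (log2 fold change 0.82 ± 0.09, adjusted p = 0.00014). Arginase arg fell by 0.97 ± 0.14, a call that was lost without exons shared with other genes.

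Purine genes went both ways, and amino acid transporters were called about as often as all genes. In de novo purine synthesis 3 of 12 rose and 4 fell, and 1 rose without high- or low-sugar library B. CG17273 (Adss), which commits IMP to AMP, had 635, 713 and 733 CPM in high-sugar libraries, against 482, 419 and 508 CPM in low-sugar libraries. ras, which commits IMP to GMP, had 130.5, 115 and 106 CPM in high-sugar libraries, against 183, 188 and 204 CPM in low-sugar libraries. CG17273 and ras, each 1 enzyme of its branch, moved in opposite directions without overlap between the diets. ade5 (Paics), in the shared pathway to IMP, fell by 0.82 ± 0.15. Purine breakdown fell at xanthine dehydrogenase ry, with 19.4, 21.7 and 21.5 CPM in high-sugar libraries, against 58.1, 35.0 and 44.0 CPM in low-sugar libraries, and at urate oxidase Uro, with 101, 86.7 and 114 CPM in high-sugar libraries, against 318, 218 and 211 CPM in low-sugar libraries. Both are tubule genes, and over the whole list of Malpighian tubule markers 2 of 14 rose (1 without high-sugar library C or low-sugar library B) and 2 fell, the fallers being these 2 genes, at 0.0582% to 0.0695% of named reads on high sugar, against 0.0614% to 0.0773% on low sugar. Of 25 amino acid transporters, 4 rose and 3 fell, near the shares over all genes (11.5% and 11.6%), with a median of 0.06. The glutamate transporter Eaat1 had 58.3, 89.2 and 83.6 CPM in high-sugar libraries, against 29.3, 29.1 and 40.0 CPM in low-sugar libraries. The nutrient transporter NAAT1 had 74.2, 99.8 and 77.9 CPM in high-sugar libraries, against 48.3, 36.0 and 54.0 CPM in low-sugar libraries. The predicted transporters CG16700 and CG7255 rose by 0.82 ± 0.15 and 0.91 ± 0.19, whereas the 3 falls (slif, gb and mnd) were each lost without at least 1 library (adjusted p of up to 0.0866, 0.0882 and 0.116).

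**Figure D2:**
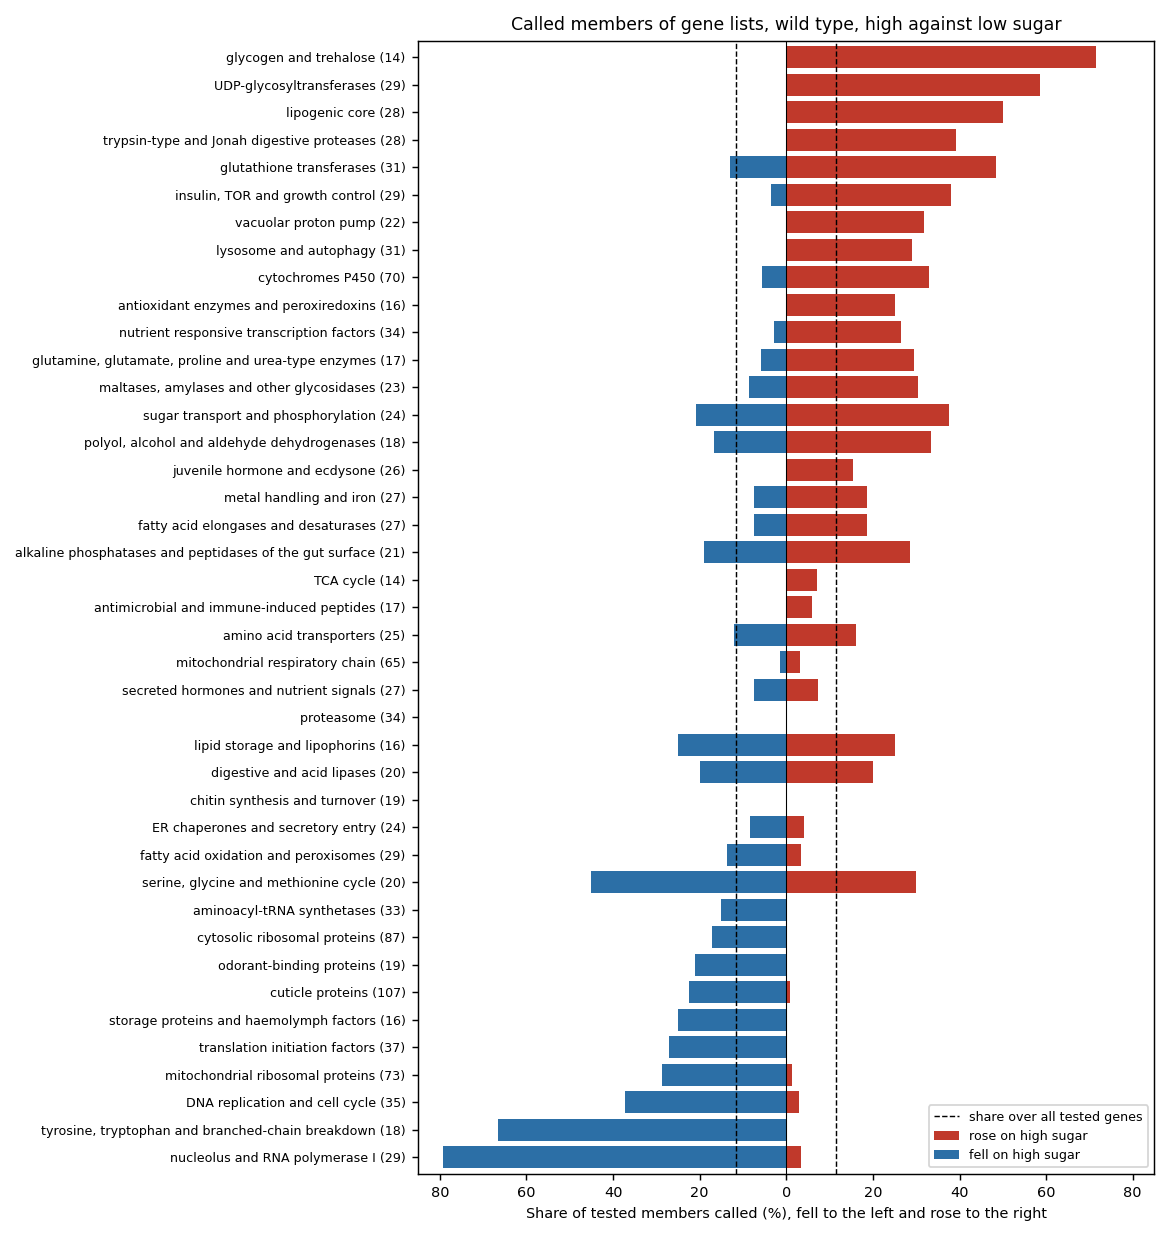
Share of the tested members of 41 gene lists with at least 14 tested members that rose (bars to the right) or fell (bars to the left) on high sugar relative to low sugar, in percent, with the number tested in parentheses and dashed lines at the share over all 10045 genes (11.5% rose, 11.6% fell). Glycogen and trehalose genes stand far to the right and nucleolus genes far to the left.

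Most genes of the nucleolus fell, while the count of cytosolic ribosomal proteins that fell was close to the background. In the list of nucleolus and RNA polymerase I genes 23 of 29 fell and 1 rose (median -0.69). Fibrillarin Fib, which methylates ribosomal RNA, had 228, 205 and 170.2 CPM in high-sugar libraries, against 368, 414 and 471 CPM in low-sugar libraries. Nop56, its partner, had 244, 242 and 183 CPM in high-sugar libraries, against 402, 458 and 507 CPM in low-sugar libraries. mod had 510.5, 544 and 445 CPM in high-sugar libraries, against 883, 909 and 983 CPM in low-sugar libraries. In all 3 genes high-sugar library C was the lowest and low-sugar library C the highest of the 6. Also lower were Surf6, ppan, Nop60B and wcd, by 1.04 ± 0.14, 1.00 ± 0.15, 0.93 ± 0.15 and 0.96 ± 0.16. Of 73 mitochondrial ribosomal proteins 21 fell and 1 rose (median -0.27). The count depended on single libraries: 10 fell without high-sugar library B and 13 without any 1 low-sugar library, and 47 with the cuticle covariate. mRpL52 had 46.0, 37.7 and 43.4 CPM in high-sugar libraries, against 63.1, 64.7 and 62.0 CPM in low-sugar libraries (log2 fold change -0.58 ± 0.11, adjusted p = 0.00274), and mRpS6, mRpL13 and mRpL40 fell by 0.57 ± 0.12, 0.47 ± 0.10 and 0.37 ± 0.08. Of 87 cytosolic ribosomal proteins 15 fell, against a background of 11.6%, with a median of -0.19. Without high-sugar library B 3 fell, without low-sugar library B 7, and with only the wild-type libraries in the fit 5. As a list they held 9.95%, 8.78% and 9.88% of named reads in high-sugar libraries, against 11.1%, 10.8% and 11.3% in low-sugar libraries. RpS20 had 998, 834 and 986 CPM in high-sugar libraries, against 1294, 1247 and 1262 CPM in low-sugar libraries, and RpL34a fell by 0.40 ± 0.09, both without overlap. The lowest p in the list belonged to RpLP0-like, a ribosome assembly factor and not a subunit, lower by 0.88 ± 0.14.

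Fewer translation initiation factors fell than nucleolus genes, and the count of tRNA synthetases that fell was close to the share over all genes (11.6%). Of 37 initiation factors 10 fell (median -0.18), with 3 without high-sugar library B, 5 without high-sugar library A or low-sugar library B, and 6 without high-sugar library C or with only the wild-type libraries in the fit. eIF6, which keeps the large subunit from joining early, had 114, 114 and 102 CPM in high-sugar libraries, against 175, 171 and 173 CPM in low-sugar libraries. Of 33 aminoacyl-tRNA synthetases 5 fell (median -0.16), with 3 without any 1 high-sugar library or low-sugar library A, and 17 with the cuticle covariate. Aats-lys (LysRS) had 206, 190.3 and 188 CPM in high-sugar libraries, against 367, 306 and 302 CPM in low-sugar libraries, and Aats-his (HisRS) and CG2263 (alpha-PheRS) fell by 0.44 ± 0.09 and 0.65 ± 0.15. None of 34 proteasome genes was called by edgeR (median -0.14), with 0 under 0.05 without adjustment and 0 called by DESeq2, but 10 fell without the 3 libraries of low cuticle expression and 7 with the cuticle covariate. Of 24 genes of the ER and secretory entry 1 rose, the stress sensor Ire1 by 0.49 ± 0.10, and 2 fell, among them the glycosylation enzyme CG1518 (Stt3A) by 0.56 ± 0.12. Here 1 fell without high- or low-sugar library A or B, 15 with the cuticle covariate, 6 without the 3 libraries of low cuticle expression, and 4 with a minimum of 5 CPM or without exons shared with other genes. Of 13 heat shock and chaperone genes 3 fell, with Hsp26 at 32.9, 37.5 and 35.2 CPM in high-sugar libraries, against 58.5, 63.0 and 62.3 CPM in low-sugar libraries and the mitochondrial co-chaperonin CG11267 lower by 0.78 ± 0.15. In DNA replication and the cell cycle 13 of 35 fell and 1 rose (median -0.47). Without high-sugar library B 8 fell, and 23 fell with the cuticle covariate. The sliding clamp mus209 (PCNA) had 50.9, 42.8 and 51.9 CPM in high-sugar libraries, against 114, 107 and 87.8 CPM in low-sugar libraries. The licensing factors dup and Orc1, the helicase partner CDC45L (Cdc45) and the mitotic kinase ial (aurB) fell by 0.80 ± 0.14, 0.79 ± 0.17, 0.61 ± 0.09 and 1.08 ± 0.18. The riser, Psf3, overlaps exons of another gene and was not called without them.

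Some maltases and trypsins rose, and the amylases and some phosphatases fell. Of 23 glycosidases 7 rose and 2 fell, the fallers being Amy-p and Amy-d (1 without high-sugar library A or B, 6 with the cuticle covariate), and 4 rose without high-sugar library B or C or low-sugar library B. Of 9 tested maltases, which release glucose from maltose and sucrose, 5 rose. Mal-A8 had 154, 204 and 323 CPM in high-sugar libraries, against 30.3, 31.9 and 35.3 CPM in low-sugar libraries. Mal-A1 had 484, 838 and 1039 CPM in high-sugar libraries, against 160.0, 152 and 128 CPM in low-sugar libraries. Mal-A6 had 177, 278 and 399 CPM in high-sugar libraries, against 56.7, 65.5 and 54.6 CPM in low-sugar libraries. In these 3 maltases high-sugar library C was highest and high-sugar library A lowest of the high-sugar libraries. Of 28 trypsin-type and Jonah proteases 11 rose (median 0.79), but 5 rose without low-sugar library B, 6 without high-sugar library C, 7 without high-sugar library B or low-sugar library C, and 20 without low-sugar library A. thetaTry had 142, 203 and 217 CPM in high-sugar libraries, against 60.9, 43.7 and 31.7 CPM in low-sugar libraries. Jon65Aiii had 1176, 1106 and 1270 CPM in high-sugar libraries, against 694, 831 and 669.6 CPM in low-sugar libraries. iotaTry and lambdaTry rose by 1.10 ± 0.18 and 1.48 ± 0.32. Of 21 gut-surface enzymes 6 rose and 4 fell, and 3 rose without low-sugar library B and 10 without low-sugar library A. Alkaline phosphatases split: Aph-4 (Alp4) had 257, 295 and 337 CPM in high-sugar libraries, against 109, 86.3 and 146 CPM in low-sugar libraries. CG3264 (Alp8) had 26.6, 27.4 and 63.6 CPM in high-sugar libraries, against 176, 95.9 and 129 CPM in low-sugar libraries, and CG3292 and CG5656 (Alp1) fell by 2.89 ± 0.42 and 0.83 ± 0.19. The carboxypeptidases CG8560 and CG18585 rose by 1.09 ± 0.18 and 1.69 ± 0.34, and the mucin-like gene Mur18B by 0.57 ± 0.11. Midgut markers rose in 8 of 12 cases (5 without high-sugar library B or C or low-sugar library B), at 0.441% to 0.578% of named reads for all 15 on high sugar, against 0.336% to 0.379% on low sugar. Most of these 15 markers are themselves digestive genes, so this count in part repeats the rises above. Of the 12 tested, 11 had a log2 fold change above 0, and the lowest stood at -1.79 and was not called. The marker lab, the homeotic gene of the copper cell region, had 14.5, 14.4 and 12.4 CPM in high-sugar libraries, against 9.02, 7.44 and 9.71 CPM in low-sugar libraries (log2 fold change 0.66 ± 0.14, adjusted p = 0.00624). The part of gut size in the changes of digestive genes was not tested.

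Genes that acidify and serve lysosomes rose in small steps. In the vacuolar proton pump 7 of 22 tested subunits rose (median 0.32), the list taking 1.88%, 2.22% and 2.13% of named reads in high-sugar libraries, against 1.77%, 1.49% and 1.57% in low-sugar libraries. The call rested on few libraries: 1 rose without low-sugar library B, 2 without high-sugar library B or C or low-sugar library C, and 4 with the cuticle covariate. The subunit Vha100-4 had 59.1, 72.3 and 70.7 CPM in high-sugar libraries, against 40.6, 44.3 and 40.8 CPM in low-sugar libraries, a call lost without the 3 libraries of low cuticle expression (adjusted p = 0.0516), and Vha100-2 had 583, 717 and 707 CPM in high-sugar libraries, against 486, 394 and 426 CPM in low-sugar libraries, with the call lost only without low-sugar library B (adjusted p = 0.0525). Of 31 lysosome and autophagy genes 9 rose (median 0.23). The lysosomal membrane protein Lamp1 had 414, 494 and 508 CPM in high-sugar libraries, against 297, 284 and 283 CPM in low-sugar libraries, a log2 fold change of 0.71 ± 0.10 (adjusted p = 0.000545). The autophagy receptor ref(2)P had 193, 238 and 253 CPM in high-sugar libraries, against 155.8, 125 and 123 CPM in low-sugar libraries, and CG8678 (Atg18b), CG1347 (Atg17) and the vesicle tether lt rose by 1.10 ± 0.19, 0.47 ± 0.09 and 0.41 ± 0.10. Each of these 5 genes was higher in every high-sugar library than in any low-sugar library. Of 27 genes for metals 5 rose and 2 fell: the zinc transporter CG11163 (ZnT41F) rose by 0.64 ± 0.13 and the metallothionein MtnA fell by 0.87 ± 0.17, while without high-sugar library C or low-sugar library B 1 rose, without high-sugar library B or low-sugar library C 2, and without the 3 libraries of low cuticle expression 9.

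Detoxification families rose broadly, UDP-glycosyltransferases most. Of 29 UDP-glycosyltransferases, which attach sugars to small molecules, 17 rose, with a median of 1.01, and 11 rose without high-sugar library B or low-sugar library C. Ugt86Dd (Ugt35C1) had 21.5, 41.6 and 44.1 CPM in high-sugar libraries, against 5.64, 4.57 and 7.67 CPM in low-sugar libraries. CG15661 (Ugt49C1) had 27.4, 41.6 and 38.4 CPM in high-sugar libraries, against 15.6, 10.3 and 11.8 CPM in low-sugar libraries. CG4302 (Ugt49B1) had 138, 159 and 198 CPM in high-sugar libraries, against 79.4, 59.6 and 74.5 CPM in low-sugar libraries, and Ugt35a (Ugt35A1) rose by 1.02 ± 0.15. In these genes, as in CG5724, high-sugar library A was the lowest of the 3 high-sugar libraries. Of 31 glutathione transferases 15 rose (median 0.32) and 4 fell, but the 4 falls were all lost without high-sugar library B or low-sugar library B, and 1 fell without high-sugar library A and 2 without low-sugar library C. GstE7 had 82.7, 128 and 162 CPM in high-sugar libraries, against 25.5, 20.2 and 20.2 CPM in low-sugar libraries. GstT4 had 114, 119.9 and 152 CPM in high-sugar libraries, against 43.1, 25.5 and 26.03 CPM in low-sugar libraries, and GstE3, GstE8 and GstD8 rose by 1.34 ± 0.19, 2.18 ± 0.25 and 1.39 ± 0.20. Of 70 cytochromes P450 23 rose and 4 fell (median 0.38). The neighbours Cyp28d1 (2L:5210460-5212445) and Cyp28d2 (2L:5207267-5209345) went in opposite directions. Cyp28d1 had 40.7, 45.2 and 49.8 CPM in high-sugar libraries, against 139.7, 136 and 157 CPM in low-sugar libraries. Cyp28d2 had 155.7, 196 and 241 CPM in high-sugar libraries, against 84.3, 61.5 and 67.2 CPM in low-sugar libraries. Each of these neighbours was separated between the diets without overlap. Cyp6a23 had 296, 684 and 634 CPM in high-sugar libraries, against 108, 71.1 and 97.4 CPM in low-sugar libraries, and Cyp6a17, Cyp6a9 and Cyp12a5 rose by 2.43 ± 0.32, 1.44 ± 0.16 and 1.64 ± 0.25. Cyp4s3 fell by 0.93 ± 0.14. Of 18 polyol, alcohol and aldehyde dehydrogenases 6 rose and 3 fell, and the list held 0.483%, 0.515% and 0.584% of named reads in high-sugar libraries, against 0.309%, 0.252% and 0.294% in low-sugar libraries. The aldose reductase CG6084 (Akr1B), which turns glucose into sorbitol, had 931, 995 and 1189 CPM in high-sugar libraries, against 518, 441 and 514 CPM in low-sugar libraries, and the aldo-keto reductases CG18547 and CG12766 rose by 1.79 ± 0.18 and 2.79 ± 0.31. Aldh, which clears acetaldehyde, had 2592, 2863 and 3127 CPM in high-sugar libraries, against 1291, 953 and 1036 CPM in low-sugar libraries. Its relative CG31075 had 50.8, 52.1 and 91.3 CPM in high-sugar libraries, against 175, 138 and 164 CPM in low-sugar libraries. The peroxiredoxin Jafrac1 (Prx2) and Gclc, which makes glutathione precursor, rose by 1.04 ± 0.19 and 0.88 ± 0.18, in a list where 4 of 16 rose and 2 without low-sugar library B or high-sugar library B or C.

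**Figure D3:**
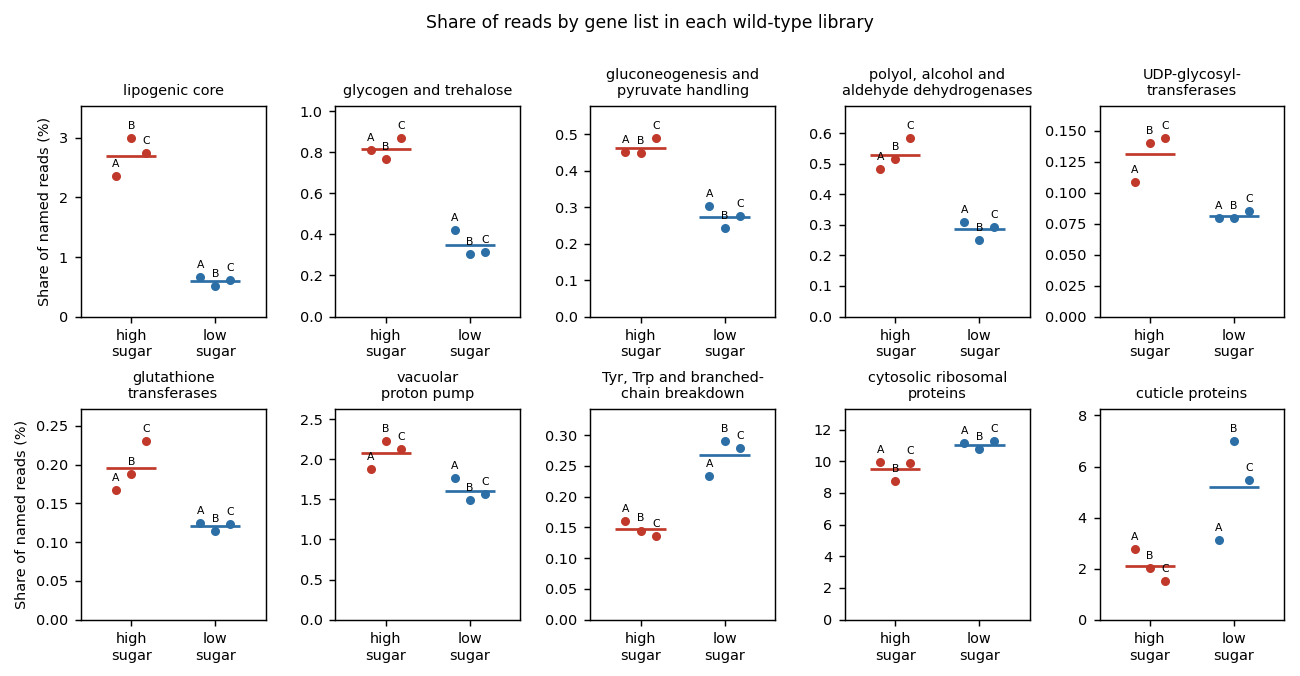
Share of named reads taken by 10 gene lists in each wild-type library, in percent on a linear axis starting at 0, with high-sugar libraries left of low-sugar libraries and a bar at the mean of 3. Lipogenic, glycogen and detoxification lists were higher in every high-sugar library, amino acid breakdown and cytosolic ribosomal protein lists lower, and the cuticle list ranged from 1.53% to 2.76% on high sugar and from 3.12% to 6.99% on low sugar.

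Regulators of nutrient signalling rose in part, activators and brakes of growth alike. In insulin, TOR and growth control, 11 of 29 rose and 1 fell (median 0.29), and 7 rose without low-sugar library B. The kinase Pdk1, which activates Akt, had 83.3, 90.2 and 82.9 CPM in high-sugar libraries, against 53.9, 51.6 and 50.4 CPM in low-sugar libraries. The insulin receptor InR had 254, 266 and 247 CPM in high-sugar libraries, against 158, 164 and 194 CPM in low-sugar libraries. Both genes promote growth. Brakes on growth were also higher: Thor, the translation inhibitor 4E-BP, had 642, 669 and 748 CPM in high-sugar libraries, against 319, 313 and 289.9 CPM in low-sugar libraries. Sesn, an inhibitor of TOR, had 88.8, 95.3 and 100.3 CPM in high-sugar libraries, against 64.0, 58.5 and 52.5 CPM in low-sugar libraries. The pair CG13624 (REPTOR) and CG18619 (REPTOR-BP), which carry out part of the response to TOR inhibition, rose by 0.63 ± 0.14 and 0.83 ± 0.18. In each of these 6 genes every high-sugar library lay above every low-sugar library. Of 27 secreted hormones and nutrient signals 2 rose and 2 fell, below the shares over all genes (11.5% and 11.6%). With the cuticle covariate 4 rose and 4 fell. daw, an activin-like ligand, had 81.3, 90.3 and 78.8 CPM in high-sugar libraries, against 29.1, 30.7 and 38.8 CPM in low-sugar libraries. CCHa2, a nutrient-responsive peptide hormone of fat body and gut, had 109, 108 and 115 CPM in high-sugar libraries, against 58.8, 59.6 and 52.3 CPM in low-sugar libraries. Nplp2 and egr, the fly TNF, fell by 0.52 ± 0.11 and 0.47 ± 0.10. Among transcription factors that respond to nutrients, 9 of 34 rose and 1 fell (median 0.22). The Gli-similar factor sug had 193, 205 and 186 CPM in high-sugar libraries, against 21.7, 27.8 and 25.2 CPM in low-sugar libraries, which gave the lowest adjusted p of the response (4.5e-08). Mondo itself, listed as Mio, had 245, 299 and 253 CPM in high-sugar libraries, against 140.4, 166 and 179 CPM in low-sugar libraries. The xenobiotic and lipid receptor Hr96 had 45.7, 57.3 and 58.0 CPM in high-sugar libraries, against 37.2, 34.7 and 28.9 CPM in low-sugar libraries. Each of these 3 factors was higher in every high-sugar library than in any low-sugar library. cbt, a repressor, and kay, the fly Fos, rose by 1.22 ± 0.25 and 0.45 ± 0.10. In the clock, tim and cwo rose by 1.42 ± 0.23 and 0.47 ± 0.10, with 2 of 9 clock genes higher and 1 lower, and clock genes also vary with the hour of collection, which was not given. Of 26 genes for juvenile hormone and ecdysone 4 rose, near the share over all genes (11.5%). Without high-sugar library B 1 rose, and 2 without low-sugar library B or C. The juvenile hormone receptor Met had 45.6, 46.9 and 45.9 CPM in high-sugar libraries, against 28.0, 30.2 and 36.8 CPM in low-sugar libraries (adjusted p = 0.0183), lost without low-sugar library A or B or high-sugar library B.

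Some haemolymph factors and cuticle genes fell, the cuticle genes with wide spread between libraries. Of 16 storage proteins and haemolymph factors 4 fell (median -0.33), with 7 lower with the cuticle covariate. Those that fell included Idgf2, an imaginal disc growth factor, which had 113, 99.9 and 119 CPM in high-sugar libraries, against 180.4, 204 and 216 CPM in low-sugar libraries. Its relative CG5210 (Idgf6) had 427, 355 and 428 CPM in high-sugar libraries, against 653, 714 and 701 CPM in low-sugar libraries, and fat-spondin fell by 0.51 ± 0.11. Of 19 odorant-binding proteins, carriers of small molecules that are also found outside the antennae, 4 fell, and 2 fell without low-sugar library B or high-sugar library C. Obp99c had 112, 92.1 and 169 CPM in high-sugar libraries, against 342, 300.2 and 303 CPM in low-sugar libraries, and Obp99a fell by 2.09 ± 0.26. Of 107 cuticle proteins 24 fell and 1 rose, with a median of -1.23, the number falling to 5 without either library B, 7 without high-sugar library C and 10 without low-sugar library C, and reaching 45 without the 3 libraries of low cuticle expression. Those 3 libraries were picked for their cuticle levels, so the count of 45 is not independent of that choice. Their share of named reads was 2.76%, 2.01% and 1.53% in high-sugar libraries, against 3.12%, 6.99% and 5.47% in low-sugar libraries, so that low-sugar library A was nearer to high-sugar library A than to its own group. Twdlalpha was steadier, at 95.1, 97.4 and 59.9 CPM in high-sugar libraries, against 209, 284 and 224 CPM in low-sugar libraries, and Cpr11B, obst-E and TwdlX fell by 0.72 ± 0.16, 1.11 ± 0.24 and 0.65 ± 0.15. Cuticle genes are transcribed around the moult, and where each library stood in the moult was not given. None of 19 chitin genes was called by edgeR, with 4 under 0.05 without adjustment and 2 called by DESeq2. Of the new-glue genes of the salivary gland, ng2 had 235, 159.7 and 351 CPM in high-sugar libraries, against 74.3, 32.6 and 31.9 CPM in low-sugar libraries and ng1 had 95.9, 57.6 and 132 CPM in high-sugar libraries, against 28.8, 12.4 and 11.4 CPM in low-sugar libraries, paralogs whose reads may be shared. Of 17 immune-induced peptide genes 1 rose, IM4, although the list's median was 2.74, with 2 rising without low-sugar library C, 3 with only the wild-type libraries in the fit and 5 by DESeq2. Among tissue markers 3 of 14 muscle genes rose and 1 fell, Mlp60A by 0.74 ± 0.15. Of the muscle genes 1 rose without high-sugar library A or B or low-sugar library B or C or with only the wild-type libraries in the fit, 7 without low-sugar library A, 6 without the 3 libraries of low cuticle expression, and 5 by DESeq2 or with RLE scaling. None of 13 neuron markers was called by edgeR, with 0 under 0.05 without adjustment and 0 called by DESeq2, but 2 fell without the 3 libraries of low cuticle expression. Muscle markers made up 7.20% to 7.93% of named reads on high sugar, against 5.63% to 7.76% on low sugar.

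Some of the called genes lie side by side. Along the tested genes of each chromosome arm, 14 runs of at least 4 neighbours were called in the same direction, 9 higher and 5 lower, with 65 genes in all. These runs were described after their values were seen, neighbours of a family can share reads, and positions are those of the table, whose genome build is not given in the sources used here. The longest runs had 6 genes, the Ugt86D cluster at 3R:6990145-7023007 among them, where Ugt86Dg (Ugt35E1), Ugt86De (Ugt35E2), Ugt35a, Ugt86Dj (Ugt304A1), Ugt86Dh (Ugt303A1) and CG18577 rose by 1.75 ± 0.46, 1.68 ± 0.50, 1.02 ± 0.15, 1.44 ± 0.32, 0.86 ± 0.26 and 1.07 ± 0.23. Of these 6, the 3 genes Ugt35a, Ugt86Dj and CG18577 were called whichever library was left out, and the others were each lost without at least 1 library (adjusted p of up to 0.0857, 0.154 and 0.144). Trypsin genes from thetaTry to iotaTry formed a run of 5, as did glutathione transferases from GstE5 to GstE9, of which GstE5 was not called without the 3 libraries of low cuticle expression and GstE9 not without exons shared with other genes. The strongest lipogenic genes also had risen neighbours. CG17221, CG17261 and the fatty acid synthase paralog v(2)k05816 (FASN2) lie beside CG3523 and had 38.0, 42.4 and 40.9 CPM, 6.86, 5.56 and 6.91 CPM and 22.3, 23.7 and 19.9 CPM on high sugar, against 10.7, 10.4 and 10.4 CPM, 0.923, 0.695 and 0.583 CPM and 13.8, 12.6 and 11.9 CPM on low sugar. Beside desat1, desat2 had 3.03, 6.28 and 4.97 CPM and CG17207 had 3.15, 4.12 and 4.33 CPM on high sugar, against 0.410, 0.199 and 0.194 CPM and 0.103, 0.0993 and 0.194 CPM on low sugar. Their levels were low, and whether reads running on from desat1 contributed was not tested. Genes of a choline kinase-like family rose in 2 separate runs on arm 3R, of which CG10560 and CG10562 rose by 1.51 ± 0.23 and 1.83 ± 0.27 and CG13658 by 0.97 ± 0.22.

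The table counts reads per exon entry, so the share of a gene's reads by exon could be compared between the diets. In 20 of 6937 genes with at least 2 tested entries (0.288%) the share changed at an adjusted p under 0.05 by the Simes test of edgeR's diffSpliceDGE on the 6 wild-type libraries. The number was 10 without high-sugar library B, 7 without high-sugar library C or without low-sugar library B, and 189 by the gene-level F test of the same fit. Of the 20 genes, 14 also rose as a whole, 1 fell and 5 were not called. The 5 genes AcCoAS, desat1, Gpdh, Ald and Men were called whichever library was left out, and also by the F test and with the library letter as a block. Gpdh and Ald share exon positions with other genes and are named after their values were seen. In several lipogenic genes the rise was uneven over the gene's entries. AcCoAS lies on the minus strand, so its entry 1 is at the 3′ end of the gene. Entry 1 (3L:21263822-21265253) had 39, 49 and 39 reads on high sugar, against 32, 50 and 69 reads on low sugar. Its entry 6 had 2994, 4394 and 4506 reads on high sugar, against 461, 313 and 442 reads on low sugar, and its entry 3 had 1086, 1346 and 1428 reads on high sugar, against 145, 118 and 158 reads on low sugar. Entries 3 and 6 were higher in every high-sugar library, while the 2 diets overlapped in entry 1. The gene desat1 lies on the plus strand with its first entry at the 5′ end. Entry 1 had 24, 40 and 44 reads on high sugar, against 28, 38 and 31 reads on low sugar, whereas entry 2 had 1027, 1613 and 1682 reads on high sugar, against 154, 130 and 99 reads on low sugar and entry 9 had 13290, 19680 and 23949 reads on high sugar, against 3149, 2404 and 3403 reads on low sugar. Reads at the outermost 5′ entry were flat while those of the next entry were many times higher on high sugar. In Gpdh, too, entry 1 had 6, 9 and 17 reads on high sugar, against 15, 21 and 17 reads on low sugar, while entry 3 had 2616, 3509 and 4191 reads on high sugar, against 738, 696 and 935 reads on low sugar. The outermost entries of these genes hold few reads, and low counts of a little-used start or end weigh little in the level of the gene.

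In Men, the malic enzyme that makes NADPH, the pattern was turned round. The gene lies on the minus strand, and its 5′ entries 4, 5 and 6 had 159, 221 and 256, 57, 95 and 73 and 12, 31 and 29 reads on high sugar, against 23, 23 and 11, 3, 4 and 8 and 1, 1 and 5 reads on low sugar. The large entry 1 had 13431, 13656 and 16863 reads on high sugar, against 5769, 4914 and 4512 reads on low sugar. The 5′ entries rose by more than the rest of the gene, by 1.79, 2.20 and 1.61 on the log2 scale. In Ald, the glycolytic aldolase, entries of 1 gene parted: entry 8 had 152, 214 and 213 reads on high sugar, against 50, 21 and 30 reads on low sugar, while entry 1 had 3157, 3011 and 2956 reads on high sugar, against 3117, 4332 and 4187 reads on low sugar. In entry 8 the diets did not overlap, while in entry 1 they did. Ald as a whole was called (log2 fold change 0.55 ± 0.09, adjusted p = 0.00118). In Ahcy13, which fell as a gene, entry 1 had 50, 81 and 83 reads on high sugar, against 68, 60 and 54 reads on low sugar, while entry 3 had 3531, 3317 and 4467 reads on high sugar, against 8244, 7745 and 7819 reads on low sugar. The others of the 10 genes with the smallest adjusted p among those sharing no entries were Ge-1, comt, CG9331, CG1600 (Drat), bt and Tequila. Of 8 other settings, the call was lost in 5 for Ahcy13, 5 for bt, 7 for Tequila, 4 for Ge-1, 3 for CG1600, 2 for comt and 1 for CG9331. In the muscle kinase bt the share went down in some entries and up in others: entry 13 had 2929, 1871 and 2877 reads on high sugar, against 3125, 5130 and 5606 reads on low sugar, whereas entry 37 had 612, 1169 and 639 reads on high sugar, against 332, 246 and 281 reads on low sugar. These calls rest on entries that the counting may have left short where exons overlap, and which transcripts they mark was not tested.

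**Figure D4:**
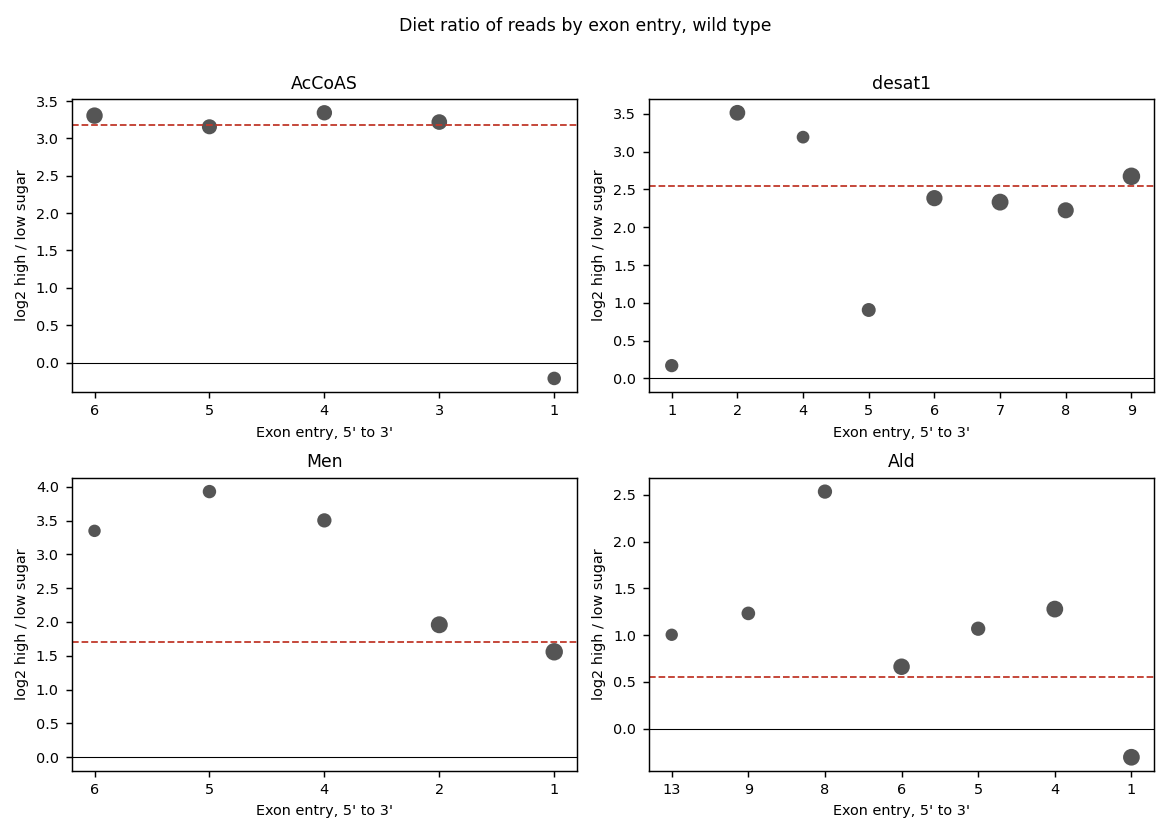
Log2 ratio of high-sugar to low-sugar CPM for each exon entry of AcCoAS, desat1, Men and Ald with at least 60 reads in the 6 wild-type libraries, in the order of transcription from left to right (point size grows with reads, dashed line at the ratio of the whole gene). The last entry of AcCoAS and the first of desat1 lie near 0, far below the whole-gene ratio, the last entry of Ald lies below 0, and the first 3 entries of Men lie above the whole-gene ratio.

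The diet response of wild type was set beside that of mlx1 larvae, which lack the partner of Mondo and share no library with it. In mlx1 larvae 1361 genes rose (13.5%) and 1580 fell (15.7%). Of the 1154 genes that rose in wild type, 540 (46.8%) also rose in mlx1, which is 39.7% of the mlx1 risers, 15 fell in mlx1 and 599 (51.9%) were not called there. Of the 1164 genes that fell in wild type, 683 (58.7%) also fell in mlx1, which is 43.2% of the mlx1 fallers, 36 rose and 445 were not called. A missing call in mlx1 does not show a difference, so the difference of the responses was tested as an interaction. The wild-type response was higher than that of mlx1 for 359 genes (3.57%) and lower for 333 (3.32%), together 692 (6.89%), and the count of both was 281 without high-sugar library B and 290 without low-sugar library B. Among the genes that rose in wild type the difference was called higher for 157 (13.6%), and among those that fell it was called lower for 124 (10.7%). The wild-type values enter both counts, which makes such overlap larger. Genes of glycogen, NADPH supply and pyruvate entry were among those that differed. CG9238 had 8.89, 10.4 and 10.9 CPM in mlx1 larvae on high sugar, against 10.5, 6.82 and 8.21 CPM in mlx1 larvae on low sugar, so that the mlx1 response was 0.24 ± 0.18 (adjusted p = 0.36), and the responses differed by 3.35 ± 0.26 (adjusted p = 7.29e-05). Zw had 29.5, 33.0 and 29.5 CPM in mlx1 on high sugar, against 27.1, 25.3 and 22.5 CPM in mlx1 on low sugar, a difference of responses of 2.46 ± 0.21 (adjusted p = 0.000117). The mlx1 libraries of both diets overlapped for CG9238 and lay close together for Zw. Of the 4 pyruvate dehydrogenase genes, all differed in their response, CG5261 by 1.38 ± 0.15 (adjusted p = 0.000462). CG3523 by contrast rose by 2.43 ± 0.18 in mlx1, and its difference of 0.26 ± 0.25 was not called (adjusted p = 0.566). The same held for sug, Men and aay, with mlx1 responses of 3.06 ± 0.12, 1.76 ± 0.13 and 2.0 ± 0.18. Some genes responded in opposite directions. Aph-4 had 20.9, 21.9 and 19.1 CPM in mlx1 on high sugar, against 51.4, 36.1 and 41.3 CPM in mlx1 on low sugar, a fall where wild type rose, with a difference of 2.44 ± 0.27 (adjusted p = 0.000565). Cyp28d2 likewise had 56.1, 49.7 and 40.2 CPM in mlx1 on high sugar, against 107, 73.2 and 89.3 CPM in mlx1 on low sugar (difference 2.36 ± 0.28, adjusted p = 0.000933). Both genes were lower in every mlx1 high-sugar library than in any mlx1 low-sugar library. For bmm the mlx1 response was 0.61 ± 0.15 and the difference -1.63 ± 0.21 (adjusted p = 0.00166). Idgf2 and CG5210, which fell in wild type, differed by -1.22 ± 0.16 (adjusted p = 0.00178) and -1.18 ± 0.18 (adjusted p = 0.00324). Obp99c differed by -1.75 ± 0.26 (adjusted p = 0.00322). By list, the interaction calls of ribosomal proteins and of the nucleolus went in opposite directions. Of 87 cytosolic ribosomal proteins 13 rose in mlx1 (median 0.22), close to the 13.5% over all genes, and none of these rose in wild type. The wild-type response was called lower for 18 of the 87, against 3.32% of all genes, and higher for 0. Nucleolus genes fell in both, 25 of 29 in mlx1 with a median of -1.32, and the wild-type fall was the smaller by the interaction test in 11 genes. In insulin, TOR and growth control, the wild-type response was called lower for 5 of 29 genes and higher for 0, with a median difference of 0.02. Thor, InR and Sesn rose more in mlx1, with differences of -1.47 ± 0.28 (adjusted p = 0.0103), -0.81 ± 0.19 (adjusted p = 0.0295) and -0.75 ± 0.19 (adjusted p = 0.0409). With 1 line per genotype, the effect of Mlx cannot be told apart from anything else in which these lines differ.

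**Figure D5:**
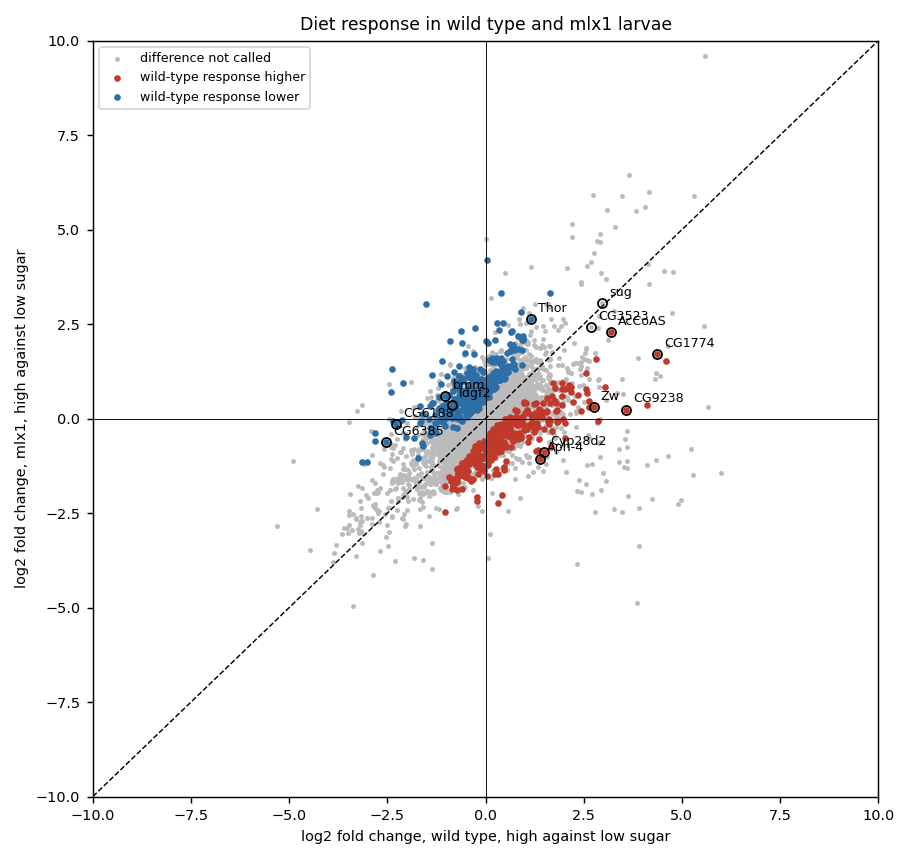
Log2 fold change on high against low sugar in wild type (horizontal axis) and in mlx1 larvae (vertical axis) for the 10045 tested genes, with genes whose 2 responses differed by the interaction test in colour and the diagonal of equal response dashed. CG9238 and Zw lie far below the diagonal near 0 on the vertical axis, CG3523 and sug lie near the diagonal, and Thor lies above it.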

How the data were processed

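Polyadenylated RNA of whole larvae was sequenced in 12 libraries of 4 groups, 3 each, labelled A, B and C. The authors deposited 1 table of read counts per exon entry, with gene names, positions and no normalization. Per the submitters' processing notes, BWA 0.5.9, SAMtools and HTSeq 0.6.1 were used on the reads, and the genome build is not given in the sources used here. Of 82004 named entries 36% overlapped another, and 67.2% of these held 0 reads in all libraries, against 9.26% of the others, so overlapping genes are counted low. The 42 entries without a name held at most 0.0148% of reads and were left out. Library totals were 8924342 to 12507970 reads.

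Counts were summed per gene name. Of the 16413 names, 11740 were current symbols, 4393 were matched as older ones (current symbols are in parentheses) and 280 were not matched. In R 4.3.3, edgeR 4.0.16 (filterByExpr, TMM, robust quasi-likelihood fit, 1 mean per group over all 12 libraries) tested the diet response in wild type, in mlx1, and their difference, 2-sided, with Benjamini-Hochberg adjustment at 0.05. Exon usage used diffSpliceDGE on the 6 wild-type libraries, with the Simes test. DESeq2 1.42.0 was an alternative, with other scaling, filters, samples, covariates, counting and leaving out each library. The scripts were tested on simulated data. Replicates differed by more than sampling noise (chi-square over degrees of freedom 19.6 to 76.3).

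Genes were named as the 15 largest log2 fold changes in each direction (at least 10 CPM in the higher group, no overlap) and the 12 largest differences of CPM (no overlap). Up to 6 members of each gene list by p were also named, and the 10 lowest adjusted p of exon usage among genes sharing no entries. Genes chosen after their values were seen are said to be so. The 58 gene lists and these rules were chosen with earlier results of these data known, so counts over lists are descriptions beside the share over all genes. For named reads, the denominator was all reads with a gene name.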

Additional observations from a re-analysis of the deposited data

Results flagged for a closer look

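Of the genes named above, 63 had a diet response in wild-type larvae that differed from that in mlx1 larvae by the interaction test of edgeR (quasi-likelihood, Benjamini-Hochberg adjustment over all genes tested). The values below are the wild-type minus the mlx1 log2 response, positive where wild type responded more upward. No explanation was weighed for them, and each genotype was 1 line.

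Among lipid and NADPH genes the difference was 2.18 for ATPCL, 0.90 for AcCoAS, 1.33 for desat1 (Desat1), 3.74 for desat2 (Desat2), 1.17 for CG17221, 1.0 for Gpdh (Gpdh1), 1.27 for Gpo-1 (Gpo1), 2.46 for Zw, 1.99 for Pgd, 1.72 for CG8036, 0.83 for Lsd-1, 1.33 for Npc2d and 2.66 for CG1774 (adjusted p = 0.000117 to 0.0374). All of these rose in wild type, and the smallest wild-type response, 1.04, was that of Npc2d. Among genes of sugar, glycogen and pyruvate it was 3.35 for CG9238 (Gbs-70E), 1.76 for CG33138 (AGBE), 1.08 for UGP, 1.06 for Pgi, 1.24 for CG5171, 0.57 for Ald, 0.90 for CG4607, 1.60 for CG4797 (pippin), 2.22 for CG32444, 1.38 for CG5261 (muc), 1.11 for l(1)G0334 (Pdha), 0.73 for CG11876 (Pdhb), 0.73 for CG7430 and 1.37 for CG18547 (adjusted p = 7.29e-05 to 0.0432), again all risers in wild type. For desat2 the standard error was 0.84, and its levels were low in all libraries on low sugar.

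In detoxification, digestion, proton transport and regulation the wild-type response was also the higher, by 2.36 for Cyp28d2, 1.76 for Cyp6a23, 1.48 for GstE8, 3.07 for CG1638, 1.23 for Mal-A8, 2.44 for Aph-4 (Alp4), 1.21 for Vha100-4 and 0.79 for Hr96 (adjusted p = 0.000565 to 0.0409). The mlx1 response was negative for Aph-4, Cyp28d2, Vha100-4 and Hr96, at -1.06, -0.89, -0.52 and -0.12.

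Genes that fell in wild type with a lower response than in mlx1 included enzymes of amino acid, purine and fat breakdown, with -1.91 for CG6385 (Sardh), -2.14 for CG6188 (Gnmt), -0.70 for CG5955 (Tdh), -0.84 for Ahcy13 (Ahcy), -1.11 for arg, -1.75 for hgo, -0.98 for v, -1.0 for Uro, -1.41 for CG12262 (Mcad), -1.14 for CG4586, -0.99 for yip2 and -1.63 for bmm (adjusted p = 7.29e-05 to 0.0413). The others of this kind had -0.98 for sut1, -2.0 for Cyp28d1, -2.44 for CG10026, -1.89 for CG14850 (Jig), -2.02 for CG14852, -2.21 for CG17362, -1.22 for Idgf2, -1.18 for CG5210 (Idgf6), -1.75 for Obp99c and -0.54 for RpS20 (adjusted p = 0.00032 to 0.041).

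In 4 growth regulators both responses were positive and the wild-type one was the smaller, by -1.47 for Thor, -0.81 for InR, -0.75 for Sesn and -1.0 for CG18619 (REPTOR-BP) (adjusted p = 0.0103 to 0.0411). In the nucleolar genes both responses were negative and the wild-type one was nearer 0, by 0.73 for Surf6 and 0.71 for mod (adjusted p = 0.0354 to 0.0411).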

How the results depend on the processing

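Calls were counted under 15 other settings. Genes that rose, 1154 as reported, numbered 1019 to 1448 and genes that fell, 1164 as reported, 894 to 1708 under other scaling factors, tools, filters, samples, covariates and counting. Leaving out 1 wild-type library gave 681 to 1249 higher and 690 to 1112 lower, with the lowest counts without high-sugar library B (747 higher, 690 lower) and low-sugar library B (681 higher, 742 lower). The count of genes whose response differed between wild type and mlx1, 692 as reported, was 1191 by DESeq2, 1376 with the cuticle mean as a covariate, and 281 to 670 when 1 wild-type library was left out. Exon usage calls, 20 as reported, numbered 189 by the gene-level F test and 7 to 30 when 1 library was left out. The causes were not tested. Whether the letters pair high- with low-sugar wild-type libraries is not given. Deviations of these libraries from the group means correlated at -0.538 for A, 0.362 for B and -0.371 for C, which with 3 libraries per group cannot settle it. Over all pairs of groups the same-letter correlation was -0.538 to 0.744. Low-sugar libraries of wild type and mlx1 moved together for A and B (0.744 and 0.687) but little for C (0.174). High-sugar libraries of wild type and mlx1 had -0.00293, 0.342 and -0.348. With the letter as a replicate block the counts were 1195 higher, 1181 lower, 2936 in mlx1, 534 differing and 16 for exon usage. Of 242 genes named here, 239 were called for the wild-type diet response as reported, and 201 of them kept the call under every setting. A gene without an adjusted p in a setting was counted as lost there. Psf3 reversed to -0.07 without exons that overlap another gene. Other scalings moved the median log2 fold change of all genes by 0.037 (RLE) and 0.051 (DESeq2). The common dispersion was 0.0619 with 8 residual degrees of freedom, and whether depth limits calls of genes with few reads was not tested. A planned description of promoter motifs was not run, since no promoter sequences were used here.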
